A study of Mus musculus with 4 samples.

Results

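The cardiac myosin heavy chain genes Myh6, Myh7 and Myh7b, the light chain genes Myl2, Myl3, Myl4 and Myl7, the myosin-binding protein C gene Mybpc3 and the cardiac myosin light chain kinase gene Mylk3 were examined for nearby binding of CTCF. These 9 genes were taken as a set, and every region of either CTCF list whose summit lay within 50 kb of a gene span (mm10) was included. This gave 30 of 16128 regions in the library labelled CTCF knockout and 39 of 20043 regions in the control library. The assay was ChIP-seq, in which DNA pulled down with an antibody is sequenced, and the cells were isolated cardiac myocytes from the left ventricle of C57BL/6 mice. The labelled CTCF_knockout library and the control library were each made from cells pooled from 3 hearts, so there was 1 library per genotype and no test between genotypes was possible. The driver of the deletion, its timing and the age of the mice are not stated in the labels used here. The series' design text also names pressure overload, which was not analysed here. CTCF regions measure no expression, so the labelled cell type could not be checked against marker genes, and the 2 regions called within 10 kb of Ctcf in each list do not measure the deletion.

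Sarcomeric myosin is the motor of the thick filament. Each heavy chain carries an essential and a regulatory light chain, and myosin-binding protein C decorates the filament and restrains cross-bridges. In the mouse, Myh6 (alpha heavy chain) predominates in adult myocardium and Myh7 (beta heavy chain) in the fetal ventricle and in the stressed adult heart. The pair lie in tandem, and the heavy chain genes carry microRNAs inside them. CTCF is a zinc-finger protein which, with cohesin, holds the feet of chromatin loops and can separate a promoter from enhancers beyond it.

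The microRNAs inside the 3 heavy chain genes are shown because they share the regions of their host genes. Mature sequences are from RefSeq (GRCm38.p6), written 5′ to 3′ with the seed, bases 2 to 8, in capitals.
miR-208a-3p, inside Myh6: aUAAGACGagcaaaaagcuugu
miR-208b-3p, inside Myh7: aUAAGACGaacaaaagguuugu
miR-499-5p, inside Myh7b: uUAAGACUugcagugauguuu
The 2 miR-208 sequences had the same seed and were identical at 19 of 22 bases. The seed of miR-499-5p matched theirs at 6 of 7 bases and differed at base 8. The closest summit to the Mir208a hairpin lay 9.52 kb away in the library labelled CTCF knockout and 9.49 kb away in the control. For Mir208b these distances were 36.2 and 36.1 kb, and for Mir499 they were 2.88 and 1.89 kb. The hairpin inside Myh7b was thus the closest of the 3 to a CTCF region in each list.

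All 9 genes had at least 1 region within 50 kb in both lists. Over all 21887 protein-coding genes this held for 68.6% in the library labelled CTCF knockout and 72.9% in the control. The number of regions per gene ranged from 2 to 8 with a median of 3 in the labelled knockout library, and from 2 to 12 with a median of 4 in the control. Over all protein-coding genes the medians were 1 and 2. Per 100 kb of window the 9 genes had 2.85 regions in the labelled knockout library and 3.65 in the control, against 1.28 and 1.58 over all protein-coding genes. Windows of neighbouring genes overlap, as those of Myh6 and Myh7 do, and a region they share counts once for each gene here. A summit inside the span was found in both lists for Myh7b and Myl2 and for no other member. Among all protein-coding genes 23.8% had a summit inside the span in the labelled knockout library and 28.8% in the control.

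**Figure D1:**
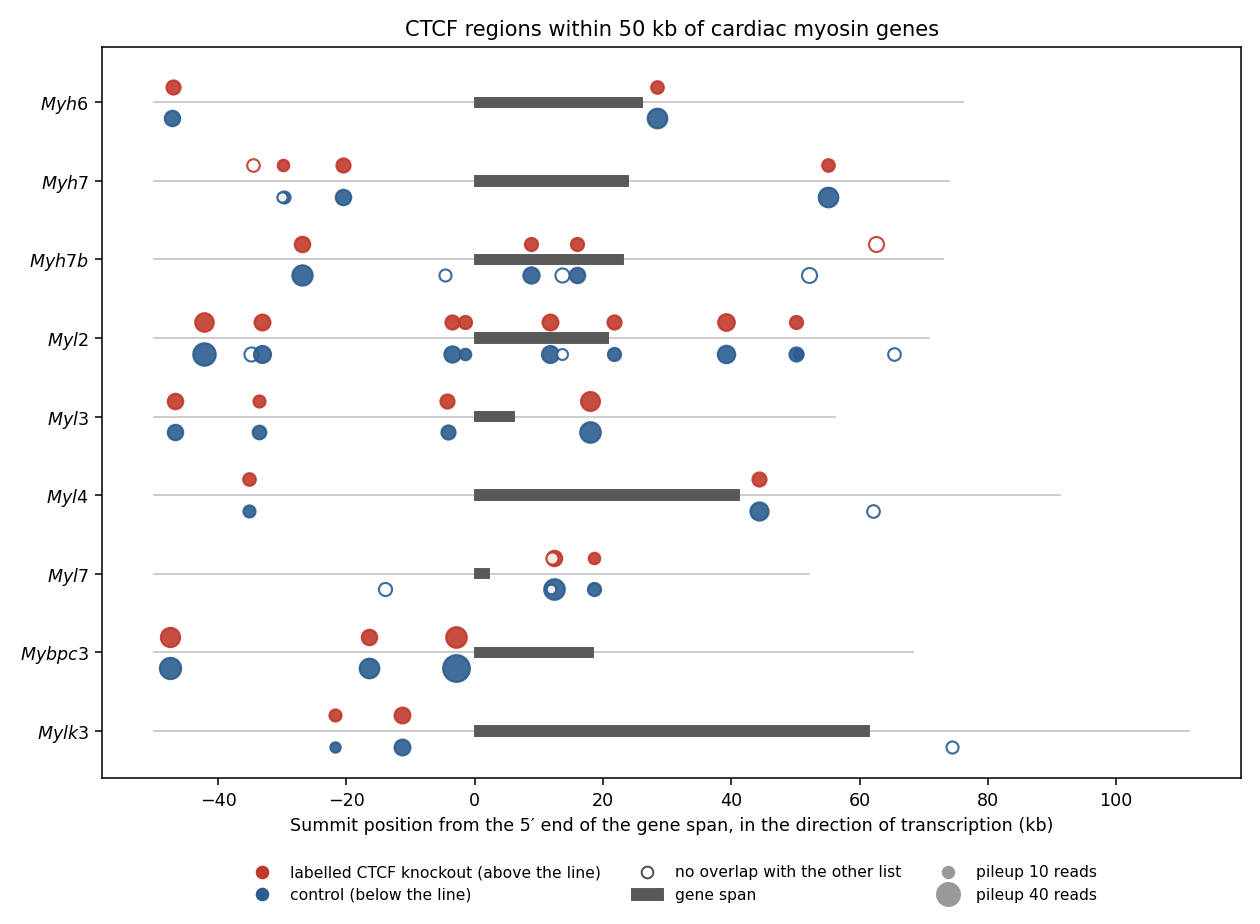
Position of each CTCF region summit within 50 kb of the 9 gene spans, in kb from the 5′ end of the gene in its direction of transcription, for the library labelled CTCF knockout (red, above each line) and the control (blue, below). Point area is proportional to the recovered pileup in reads, open points overlap no region of the other list, and dark bars are gene spans. Summits lie inside the spans of Myh7b and Myl2 only, and the largest point is the control region 2.88 kb before Mybpc3.

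A region of the control list is called kept where a region of the other list overlapped it by at least 1 bp. Near the 9 genes 28 of 39 control regions were kept (71.8%, Wilson 95% interval 56.2 to 83.5), beside 69.0% of all control regions. In the reverse direction 3 of 30 regions of the library labelled CTCF knockout overlapped no control region (10%, interval 3.46 to 25.6), beside 14.2% of that whole list. Both shares of the members had intervals that covered those of the whole lists. The intervals cover counting error only. Each region carries a fold enrichment, the authors' own value over a local background, which was ranked only within its list. Whether that background came from the ChIP library or from its input was not examined here. The median fold enrichment of the member regions was 7.68 in the labelled knockout library (whole list 7.13) and 7.36 in the control (whole list 6.98). The 28 kept control regions had fold enrichments from 3.99 to 19.4 and the 11 others from 3.92 to 7.74.

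**Figure D2:**
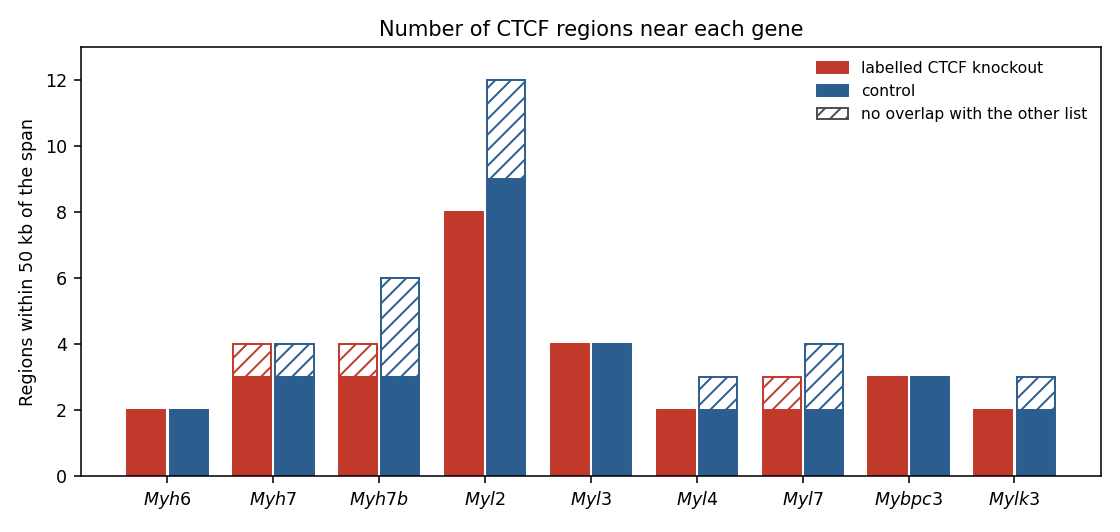
Number of CTCF regions with a summit within 50 kb of each gene, for the library labelled CTCF knockout (red, left bar) and the control (blue, right bar). Hatched parts overlap no region of the other list; Myl2 has the most regions, 8 and 12, and Myh6, Myl3 and Mybpc3 have no hatched part.

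Pileup is the number of reads stacked at a summit, recovered here from the deposited fold enrichment and −log10 p. The 30 regions in the library labelled CTCF knockout had pileups from 10 to 32 reads with a median of 15, and the 39 control regions had 7 to 54 reads with a median of 15. At each control region's own pileup, the share kept over the whole control list averaged 70.5%. The 11 control regions that were not kept had 7 to 17 reads. The lists differed in recovered background, the lowest of which was 0.851 reads in the labelled knockout list and 1.01 reads in the control list, a ratio of 0.846. The part of this difference in the results below was not tested.

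The Myh6 and Myh7 tandem locus spans 52.7 kb on chromosome 14, with both genes on the minus strand and 2.67 kb between them. Neither list held a region inside Myh6 (chr14:54941921-54968017), inside Myh7 (chr14:54970684-54994626) or between them. Mhrt, a long non-coding RNA gene antisense to Myh7 (chr14:54968787-54974349), lay within the same empty stretch. The stretch without a region measured 75.3 kb in the library labelled CTCF knockout and 75.4 kb in the control. Among protein-coding genes with no region on their span, the median stretch was 224 kb in the labelled knockout library (16123 genes, quartiles 90.2 and 803 kb) and 185 kb in the control (14977 genes, quartiles 76.4 and 719 kb). The stretch around Myh6 and Myh7 was thus shorter than the lower quartile in both lists.

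The region that closed the stretch beyond the 3′ end of Myh6 lay inside the neighbouring gene Cmtm5. In the library labelled CTCF knockout it was called at chr14:54939458-54939644 with a fold enrichment of 7.02 and 12 reads (exact Poisson 95% interval 6.20 to 21.0). The control region at chr14:54939323-54939690 had a fold enrichment of 14.6 and 29 reads (19.4 to 41.6). By fold enrichment the region ranked at percentile 48.1 of the list in the labelled knockout library and at percentile 96.0 in the control. The pileup ratio of the labelled knockout library to the control was 0.414 (exact 95% interval 0.192 to 0.836), the lowest of the 27 pairs of overlapping regions near the members. Of 1069 kept control regions with a pileup within 10% of this one, 2.25% had a lower ratio, and their median ratio was 0.724. The region was singled out after its value was seen.

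At the other side, before the 5′ end of Myh7, the closing region lay next to Ngdn (neuroguidin). It was called at chr14:55014981-55015205 in the library labelled CTCF knockout, with a fold enrichment of 6.21 and 15 reads, and at chr14:55015046-55015197 in the control, with 6.11 and 18 reads. Its summit lay 20.5 kb from the Myh7 span in both lists, and the summits of the lists were 46 bp apart. The labelled knockout region only just reached the promoter window of Ngdn, which starts at chr14:55015204. The control region ended shortly before that window. The pileup ratio of 0.833 had an interval from 0.391 to 1.75, so no difference was detectable at this depth. Beyond the far end of Ngdn, a region at chr14:55024351-55024557 had 5.94 and 10 reads in the labelled knockout library, and its control partner at chr14:55024379-55024541 had 5.78 and 11 reads. A second control region at chr14:55024609-55024744 (4.49, 8 reads) was not kept and lay 51 bp from that labelled knockout region. The list labelled CTCF knockout in turn held a region with no control partner at chr14:55029137-55029275 (6.34, 12 reads), 5.07 kb from Ngdn.

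**Figure D3:**
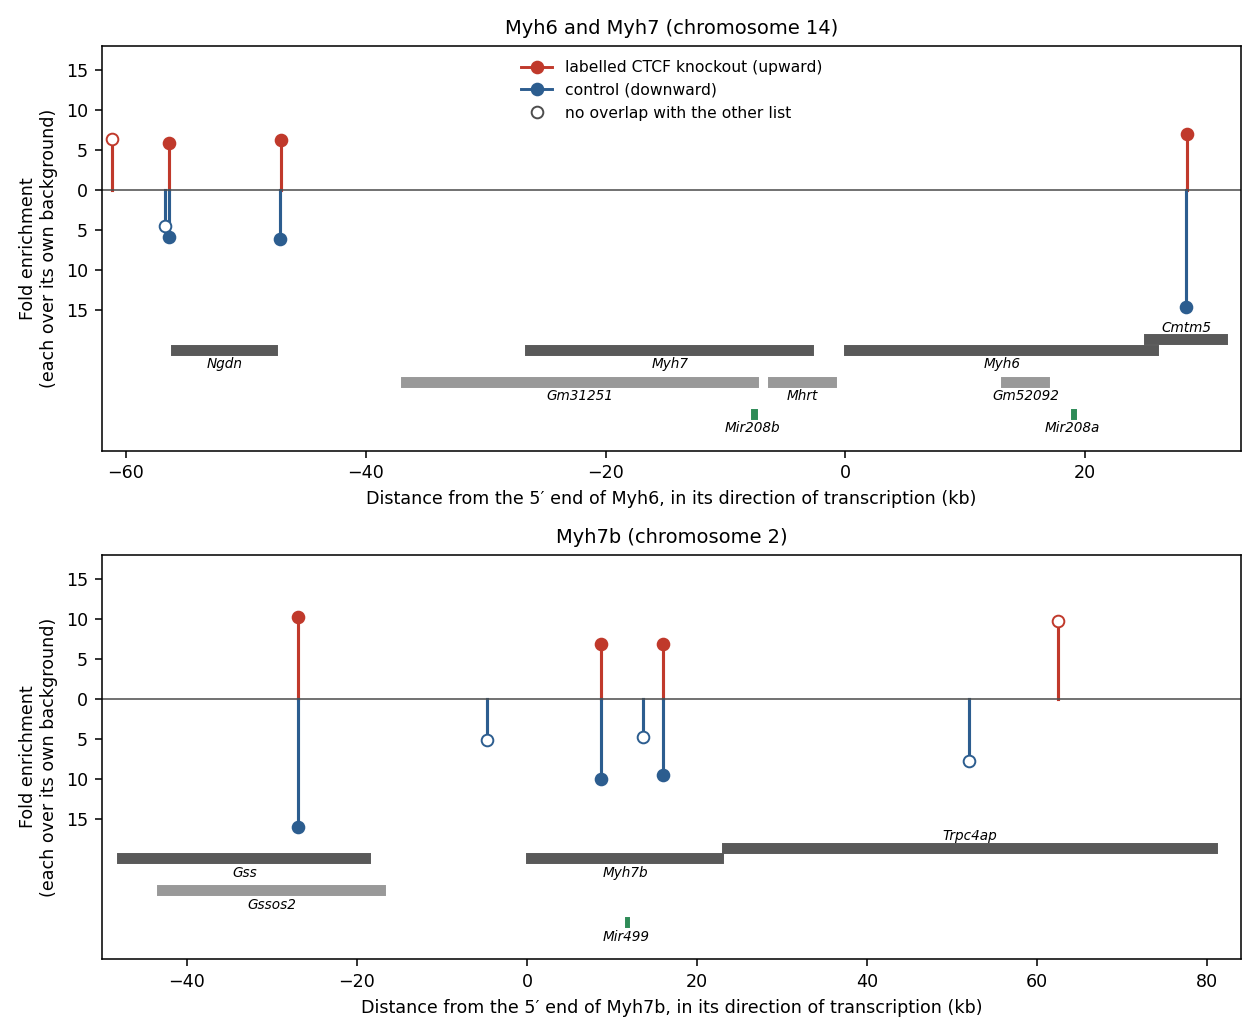
Fold enrichment of CTCF regions (y axis, each value over its own local background) along the Myh6 and Myh7 locus (top) and the Myh7b locus (bottom). The x axis gives the distance in kb from the 5′ end of Myh6 or Myh7b. The library labelled CTCF knockout points upward (red) and the control downward (blue), and open points overlap no region of the other list. Dark bars are protein-coding genes, grey bars long non-coding RNA genes and green bars microRNAs. No region stands between the one in Cmtm5 (7.02 and 14.6) and the one next to Ngdn (6.21 and 6.11).

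Myh7b, a slow-type heavy chain gene (chr2:155611243-155634307), had 2 regions within its span in the library labelled CTCF knockout and 3 in the control. The first, 8.76 kb into the gene, had a fold enrichment of 6.83 and 13 reads at chr2:155619925-155620105 in the labelled knockout library, against 9.95 and 20 reads at chr2:155619815-155620200 in the control. The other shared one, at chr2:155626944-155627362, also had 6.83 and 13 reads in the labelled knockout library, and its control partner at chr2:155626949-155627423 had 9.47 and 18 reads. The Mir499 hairpin (chr2:155622880-155622958) lay between these 2 shared regions. The remaining control region inside the gene, at chr2:155624784-155624954 (4.75, 15 reads), lay between them, was closest to Mir499 and was not kept. The shared pair had pileup ratios of 0.650 (interval 0.297 to 1.37) and 0.722 (0.325 to 1.56), which do not separate the libraries.

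Outside Myh7b, the region with the most reads lay inside Gss, the glutathione synthetase gene, 26.9 kb before the 5′ end. It had a fold enrichment of 10.3 and 18 reads at chr2:155584239-155584438 in the labelled knockout library, against 15.95 and 31 reads at chr2:155584215-155584462 in the control (ratio 0.581, interval 0.306 to 1.07). A control region 4.71 kb before Myh7b (chr2:155606455-155606683; 5.18, 11 reads) was not kept. The part of Trpc4ap within the 50 kb window, which follows Myh7b, carried 1 region of each list and no shared one. The labelled knockout region at chr2:155673618-155673848 had 9.73 and 17 reads, and the control region at chr2:155663193-155663402 had 7.74 and 17 reads. They lay 10.2 kb apart. Of the 925 control regions with 17 reads, 85.4% were kept.

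Myl2, the ventricular regulatory light chain gene (chr5:122092724-122113473), had the most regions of the 9 genes, with 8 in the library labelled CTCF knockout and 12 in the control. All 8 overlapped a control region, and 9 of the 12 were kept, since 1 labelled knockout region spanned 2 control regions. The region closest to the start site, 1.46 kb before it, had a fold enrichment of 7.56 and 13 reads at chr5:122091144-122091353 in the labelled knockout library, against 4.75 and 10 reads at chr5:122091082-122091348 in the control. The next, 3.61 kb before the gene, had 7.80 and 15 reads at chr5:122088870-122089240, against 9.06 and 20 reads at chr5:122089005-122089348 in the control. One region inside Myl2, at chr5:122104273-122104515 in the labelled knockout library, had 8.64 and 19 reads, against 9.92 and 22 reads at chr5:122104158-122104517 in the control. Of these 3 regions, the pileup of the one nearest the start site was the higher in the labelled knockout library and the others were the lower, each within counting error. A weak second control region inside Myl2, at chr5:122106319-122106454 (4.99, 9 reads), was not kept.

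Further from Myl2, the strongest region lay next to Cux2, a homeobox gene, 42.3 kb before Myl2. It had a fold enrichment of 11.7 and 26 reads at chr5:122050248-122050589 in the library labelled CTCF knockout, against 19.4 and 38 reads at chr5:122050219-122050780 in the control (ratio 0.684, interval 0.399 to 1.16). With 19.4, it was the highest control fold enrichment of all member regions. A region 33.2 kb before Myl2 had 8.64 and 19 reads (chr5:122059235-122059641) in the labelled knockout library, against 9.89 and 22 reads (chr5:122059472-122059665) in the control. Beyond the 3′ end, the gene Ccdc63 held a shared pair of regions. The nearer had 7.80 and 15 reads at chr5:122114207-122114554, against 6.98 and 13 reads at chr5:122114338-122114563 in the control. The other had 10.7 and 21 reads at chr5:122131734-122132061, against 11.96 and 23 reads at chr5:122131531-122132172 in the control. At each of this pair the pileups differed by 2 reads, the labelled knockout library being higher at the nearer region and lower at the other. Past Ccdc63, the labelled knockout region at chr5:122142739-122143117 (6.83, 13 reads) covered parts of 2 control regions, at chr5:122142728-122142903 (7.98, 15 reads) and chr5:122143007-122143180 (3.99, 7 reads). Not kept were a control region at chr5:122057676-122057880 (6.90, 15 reads) and one at chr5:122157992-122158169 (6.33, 12 reads), which overlapped the promoter of Ppp1cc, a protein phosphatase catalytic subunit gene.

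Myl3, the ventricular essential light chain gene (chr9:110763678-110769802), had 4 regions in each list, and all were shared. The strongest lay 11.8 kb beyond the 3′ end, with a fold enrichment of 14.2 and 27 reads at chr9:110781263-110782052 in the library labelled CTCF knockout, against 16.5 and 32 reads at chr9:110781181-110781867 in the control. The region 4.28 kb before the start of Myl3 had 7.44 and 15 reads at chr9:110759232-110759524, against 7.98 and also 15 reads at chr9:110759283-110759616 in the control. A region 46.8 kb before Myl3 had 9.26 and 18 reads at chr9:110716844-110717110, against 7.36 and 18 reads at chr9:110716804-110717031 in the control. At both of these regions the libraries had equal pileups. The weakest, inside Pth1r (the parathyroid hormone receptor gene), had 4.66 and 11 reads at chr9:110729943-110730132, against 5.81 and 14 reads at chr9:110729928-110730146 in the control.

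Neither atrial light chain gene held a region within its span, as was the case for Myl3. Myl4, the atrial essential light chain gene (chr11:104546017-104587215), had 2 regions in the library labelled CTCF knockout and 3 in the control. The one 3.12 kb beyond its 3′ end had a fold enrichment of 6.92 and 15 reads at chr11:104590079-104590552, against 12.96 and 25 reads at chr11:104590169-104590578 in the control (ratio 0.60, interval 0.294 to 1.18). A region inside Cdc27, an anaphase-promoting complex gene, had 5.62 and 12 reads at chr11:104510732-104510886, against 5.88 and 11 reads at chr11:104510714-104510870 in the control. A control region inside Itgb3, an integrin gene, at chr11:104608029-104608247 (6.48, 12 reads) was not kept. The stretch around Myl4 without a region was 79.2 kb in the labelled knockout library and 79.3 kb in the control.

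Myl7, the atrial regulatory light chain gene (chr11:5896637-5898782), had 3 regions in the library labelled CTCF knockout and 4 in the control. The strongest lay 10.2 kb beyond its 3′ end, with a fold enrichment of 8.21 and 18 reads at chr11:5886351-5886521 in the labelled knockout library, against 16.5 and 32 reads at chr11:5886264-5886537 in the control (ratio 0.563, interval 0.297 to 1.03). Beside it each list had a weaker region that the other list did not overlap. These were at chr11:5886644-5886842 in the labelled knockout library (5.85, 11 reads) and at chr11:5886887-5887028 in the control (3.92, 7 reads), and they lay 44 bp apart. The absence of an overlap here thus stands beside a near neighbour in the other list. A region next to Pold2, a DNA polymerase delta subunit gene, had 5.94 and 10 reads at chr11:5880009-5880145, against 6.82 and 13 reads at chr11:5880005-5880183 in the control.

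Mybpc3 (chr2:91118114-91136516) had 3 regions in each list, all shared and all before its 5′ end. The nearest, 2.85 kb before the gene and inside Spi1 (the gene of the blood-cell transcription factor PU.1), had a fold enrichment of 16.4 and 32 reads (interval 21.9 to 45.2) at chr2:91115062-91115447 in the library labelled CTCF knockout, against 19.3 and 54 reads (40.6 to 70.5) at chr2:91115103-91115470 in the control. The pileup ratio was 0.593 (interval 0.370 to 0.934). The 87 kept control regions of similar pileup had a median ratio of 0.80, which the interval included, and 11.5% of them had a lower ratio. This was the highest pileup among the member regions in each list. The control region stood on a background of 1.84 reads and the labelled knockout region on 1.01 reads. A second region inside Spi1, with its summit at the same base in both lists, had 8.21 and 18 reads at chr2:91101373-91101720, against 13.97 and 29 reads at chr2:91101492-91101769 in the control (ratio 0.621, interval 0.325 to 1.16). The region at the 5′ end of Slc39a13, a zinc transporter gene, had 15.7 and 28 reads at chr2:91070323-91070776, against 11.3 and 34 reads at chr2:91070249-91070778 in the control. The fold enrichments there stand over a recovered background of 0.851 reads in the labelled knockout list and 2.11 reads in the control list.

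Mylk3, whose kinase phosphorylates the ventricular regulatory light chain (chr8:85324928-85386340), had 2 regions in the library labelled CTCF knockout and 3 in the control. The one 11.4 kb before the gene had a fold enrichment of 9.75 and 19 reads at chr8:85397597-85397958, against 9.32 and also 19 reads at chr8:85397537-85397864 in the control. A weaker one 21.9 kb before the gene had 5.67 and 11 reads at chr8:85408088-85408233, against 4.49 and 8 reads at chr8:85408119-85408254 in the control. The only region beyond the 3′ end was a control region at chr8:85311855-85312009 (5.98, 11 reads), which was not kept. The stretch around Mylk3 without a region was 226 kb in the labelled knockout library and 85.5 kb in the control. Of the 1407 control regions with 11 reads, 43.9% were kept.

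Across the 27 distinct pairs of overlapping regions, the pileup in the library labelled CTCF knockout was lower than that in the control in 20, equal in 3 and higher in 4. The median ratio was 0.833, beside 0.867 over all 13696 pairs of the lists. Summed over the member pairs, the pileups were 456 reads in the labelled knockout library and 594 reads in the control, a ratio of 0.768. The pairs are not replicates, since there was 1 library per genotype, so no interval is given for this sum. The same ratio over all pairs was 0.873, and the ratio of the lowest backgrounds was 0.846. Over 83 pairs near the 34 other thick filament and myosin family genes described below, the ratio of summed pileups was 0.851. Only the intervals at the Cmtm5 and Spi1 regions nearest Myh6 and Mybpc3 excluded 1, and 25 of 27 included it. Set against the ratio of the lowest backgrounds, only the interval at the Cmtm5 region lay wholly below 0.846. That interval, 0.192 to 0.836, included 0.724, the median ratio of kept control regions of similar pileup. In 15 of 27 pairs the ratio was below the median of kept control regions of similar pileup, and in 12 it was at or above it. The summits of the 2 lists lay at most 52 bp apart in these pairs, with a median of 21 bp.

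**Figure D4:**
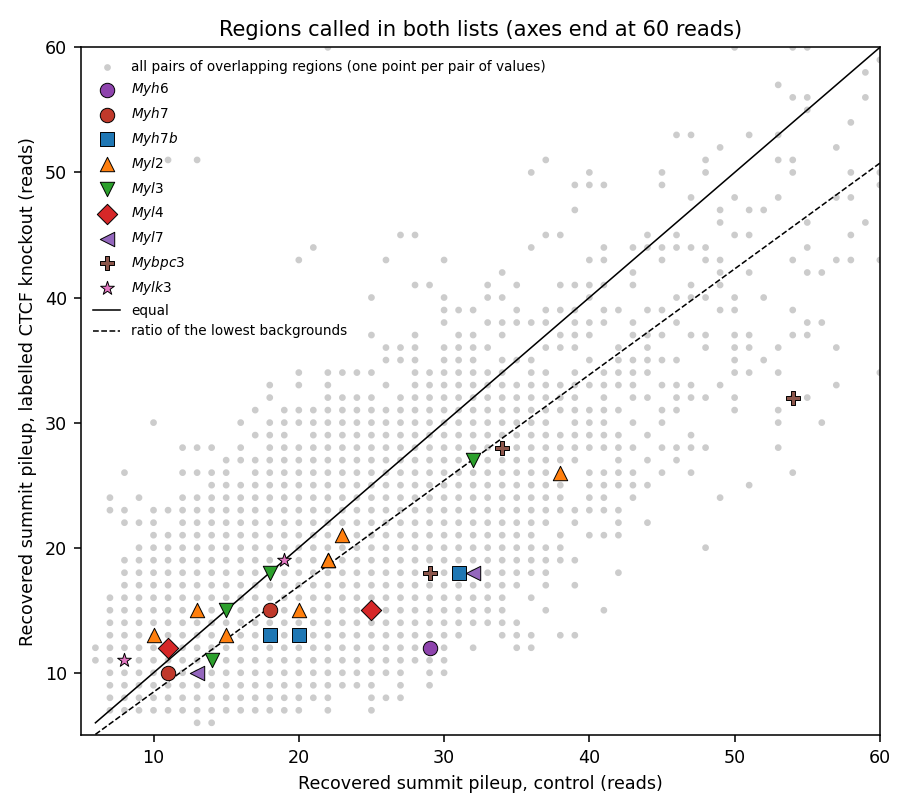
Recovered summit pileup in the library labelled CTCF knockout (y axis, reads) against the control (x axis, reads) for the 27 pairs of overlapping regions near the 9 genes (coloured symbols, 2 Myl2 pairs coincide at 22 and 19 reads) over all 13696 pairs (grey, axes end at 60 reads). The solid line marks equal pileups and the dashed line the ratio of the lowest backgrounds, 0.846; the Myh6 point, with 12 reads in the labelled knockout library and 29 in the control, lies farthest below the dashed line relative to its height.

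None of the 12 RefSeq promoters listed for the 9 genes, each 250 bases before to 50 after a start site, was overlapped by a region in either list. Over all 32851 promoters 3.88% were overlapped in the library labelled CTCF knockout and 5.63% in the control. The distance from a member's start site to the closest summit ranged from 1.46 kb (Myl2) to 39.7 kb (Myl4) in the labelled knockout library. In the control it ranged from 1.48 kb (Myl2) to 39.7 kb (Myl4). Start sites here are those of the promoters, and those of Myh6, Myl4 and Mylk3 lie inside the gene span. From the 5′ end of the Myl4 span, the closest summit lay 35.2 kb away in both lists. Over 17492 protein-coding genes the median distance was 30.8 kb in the labelled knockout library and 23.3 kb in the control. For Myh6 it was 27.1 and 27.0 kb, for Myh7 20.5 kb in both, and for Mybpc3 2.88 and 2.91 kb.

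Promoters were searched on both strands for a core of the CTCF motif, which reads CC, 3 free bases, AG, 2 free bases and GGC. It was present in 8.61% of all promoters, in 37.9% of those overlapped by a region of the labelled knockout library and in 32.8% of those overlapped by a control region. Among member promoters 2 of 12 held it, those of Myl3 and of the inner start site of Mylk3. Both are printed 5′ to 3′ in the direction of the gene with the match in capitals, which reads as the reverse complement because each match lay on the opposite strand. The promoter of Slc39a13 is added because it was the promoter overlapped in both lists by a region near Mybpc3, and its 300 bases held no match. The sequences are from RefSeq, GRCm38.p6.
Myl3, chr9:110763428-110763727, plus strand: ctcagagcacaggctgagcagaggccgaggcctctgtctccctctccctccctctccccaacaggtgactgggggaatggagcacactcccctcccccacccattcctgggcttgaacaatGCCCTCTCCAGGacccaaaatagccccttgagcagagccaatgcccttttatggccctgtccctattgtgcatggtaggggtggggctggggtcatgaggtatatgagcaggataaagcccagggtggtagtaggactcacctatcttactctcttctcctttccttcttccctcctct
Mylk3, chr8:85365275-85365574, minus strand: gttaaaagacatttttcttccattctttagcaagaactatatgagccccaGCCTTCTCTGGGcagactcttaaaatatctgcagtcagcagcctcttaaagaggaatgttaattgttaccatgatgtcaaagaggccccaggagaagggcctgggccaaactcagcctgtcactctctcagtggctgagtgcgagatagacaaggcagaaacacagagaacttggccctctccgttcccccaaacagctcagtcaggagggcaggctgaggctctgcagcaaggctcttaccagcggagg
Slc39a13, chr2:91070266-91070565, minus strand: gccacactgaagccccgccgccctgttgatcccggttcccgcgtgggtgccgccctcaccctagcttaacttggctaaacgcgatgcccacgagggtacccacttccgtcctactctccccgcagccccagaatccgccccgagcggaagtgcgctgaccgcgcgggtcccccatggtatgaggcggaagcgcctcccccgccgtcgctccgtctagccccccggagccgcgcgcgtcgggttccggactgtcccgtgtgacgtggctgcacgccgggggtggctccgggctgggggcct
The summits closest to these start sites lay 4.28 kb from Myl3 in the labelled knockout library and 4.22 kb in the control, and 32.4 kb from the inner Mylk3 start site in both. For Slc39a13 the distance was 0.266 kb in the labelled knockout library and 0.267 kb in the control.

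Other genes of the thick filament and the myosin family were set beside the 9. This list of 34 genes held skeletal, smooth muscle and non-muscle heavy and light chains, other myosin-binding proteins, M-band proteins, kinases and chaperones. It also held further muscle genes such as Cavin4, Trim63 and Smyd1, and was not restricted to genes silent in the heart. Within 50 kb there was at least 1 region for 28 of the 34 in the library labelled CTCF knockout and for 30 in the control. The median number of regions per gene was 2.5 in the labelled knockout library and 4 in the control. Per 100 kb of window these genes had 1.98 and 2.47 regions. A summit inside the span was found for 17 and 20 of them. Of their 113 control regions 83 were kept (73.5%, interval 64.6 to 80.7), and 5 of their 88 labelled knockout regions overlapped no control region (5.68%, interval 2.45 to 12.6), beside 69.0% and 14.2% over the whole lists. The skeletal heavy chain genes Myh1, Myh2 and Myh4, which lie together on chromosome 11, had no region within 50 kb in either list, nor had Smyd1, a muscle methyltransferase gene. Myh3, the embryonic heavy chain gene of the same cluster, had 7 regions in the labelled knockout library and 8 in the control. These 5 genes were singled out after their counts were seen.

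The strongest kept control region of that list was near Myom3, which encodes an M-band protein; its fold enrichment was 21.2 in the library labelled CTCF knockout and 22.0 in the control. Near Unc45b, a myosin chaperone gene, these values were 16.8 and 19.4, and for the region at Myl6b, whose control summit alone lay inside the gene, they were 12.2 and 15.97. The strongest control regions without a partner were near Myom2 (6.98), Mylk2 (6.87) and Trim63 (6.82), the last of which encodes a muscle ubiquitin ligase. Those of the labelled knockout library without a control partner were near Myl6 (7.02), inside Myh9 (6.44) and near Myl12a (6.40).

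The window limit of 50 kb fell between regions that were shared by both lists. Just inside it lay the region next to Slc39a13, 47.5 kb from Mybpc3. Just outside it, 52.4 kb from Mybpc3, lay a region with a fold enrichment of 6.48 in the library labelled CTCF knockout and 9.16 in the control.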

How the data were processed

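CTCF ChIP-seq was available as 1 peak list per genotype. The 2 input libraries were not analysed here. Per the submitters' processing notes, the tools were MACS2, SAMtools 0.1.19 and Bowtie2 2.2.6, on mm10. The MACS2 version, threshold and duplicate handling were not given in the sources used here. The authors called regions per library, per the region names. For each region the authors deposited the fold (ratio) over local background, −log10 p, −log10 q and a score that restates the −log10 q in all regions.

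Gene spans came from a RefSeq table (GRCm38.p6, the assembly of mm10), without exons, so exon and intron classes were not used here. Strand was taken from the RefSeq promoter table, whose sequences were searched for the motif. Reads were recovered as the whole pileup that returned the deposited −log10 p within 0.001 under the MACS2 formulae, which succeeded in 100% of regions. The recovery was also tested on data simulated with the same formulae, which cannot show that the deposited values follow them. With 1 library per genotype nothing was tested; intervals (Wilson, exact Poisson or exact binomial, 95%) cover counting error only, and the total depth is unknown.

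The members and lists were chosen with earlier results of these data known. All member regions are described except 1, which is counted but not reported here; from the other list, the 3 genes with the strongest kept, not kept and labelled-knockout-only region. Where 2 genes shared a region, the nearer was named. Other windows (10 and 100 kb), thresholds, overlap rules and motifs were tried. Software was matplotlib 3.10.9, scipy 1.17.1, pandas 2.3.3 and numpy 2.4.6 under Python 3.11.15.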

Additional observations from a re-analysis of the deposited data

How the results depend on the processing

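No paired analysis was possible because only 1 library represented each genotype. The number of member regions depended on the window. In the library labelled CTCF knockout it was 11 within 10 kb and 49 within 100 kb, and in the control 14 and 60, against 30 and 39 within 50 kb. It was 29 and 32 when either −log10 q or fold enrichment had to reach 5. The share of control regions kept ran from 61.5% with a reciprocal overlap of at least 50% (all control regions 59.8%) to 78.1% with the control list shortened to the length of the other (all 78.5%). The share of labelled knockout regions without a control region ran from 9.09% within 10 kb (all 14.2%) to 20% with the reciprocal overlap (all 25.7%). It was 17.2% where −log10 q had to reach 5 (all 16.2%) and also where fold enrichment had to reach 5 (all 16.8%). All these member shares stayed within the counting intervals of the main values. Those intervals are wide and the settings largely use the same regions, so this does not show that the shares are stable. The median ratio over pairs was 0.871 with the fold enrichments in place of the pileups, against 0.833; the cause was not tested. The motif was in 0 member promoters with a stricter core, in which A follows the opening CC, and in 0 with the shorter AGNNGGCNC, against 2; the first has more fixed letters. Depth limits single regions: with pair pileups of 10 to 32 reads in the labelled knockout library and 8 to 54 in the control, 25 of 27 ratios had intervals that included 1.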
